A study of Mus musculus with 18 samples.

Results

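The lungs described here are those of mouse fetuses at E18.5, the end of gestation, in which *Scap* had been deleted from the respiratory epithelium (*Scap*Δ/Δ), together with the lungs of control littermates. They were chosen by their sample labels and comprise the deleted lungs KO10, KO11 and KO12 and the control lungs C7, C8 and C9, 3 in each group and 1 array each, or 6 of the 18 arrays analysed in the series. RNA from whole lung was hybridized to Affymetrix Mouse Gene 1.0 ST arrays, on which a probe set reads a transcript along its whole length, and every value is a log2 expression value. Of the other arrays, 6 are of the same line at PN1, the day of birth, and 6 are of a line at E17.5 with *Insig1* deleted in the same cells on an *Insig2*-null background, which its controls share.

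*Scap*Δ/Δ mice (labelled Scap-/-) were *Scap* flox/flox animals that carried both an SP-C-rtTA transgene and a tetO-CMV-Cre transgene. The promoter of the surfactant protein C gene drives rtTA in lung epithelial cells, and rtTA with doxycycline turns on Cre. Dams received doxycycline in early and mid gestation only, and controls were *Scap* flox/flox littermates without the rtTA or without the Cre gene, so that all 6 lungs share the floxed alleles, the doxycycline and a mixed strain background that includes FVB/N. By the study's account the deletion was incomplete, and mesenchyme, vessels and blood cells of the lung keep *Scap* in this model. In such a bulk sample, fewer cells of a type and less RNA per cell cannot be told apart.

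SCAP is the escort protein that carries the sterol regulatory element binding proteins (SREBPs) from the endoplasmic reticulum (ER) to the Golgi, where they are cleaved into active transcription factors. SREBP-1c mainly drives genes of fatty acid synthesis, and SREBP-2 mainly drives genes of cholesterol synthesis and uptake. In the fetal lung this pathway is known for supplying lipid to type II cells, which make surfactant before birth.

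The 3 *Scap*Δ/Δ lungs did not lie equally far from the controls. KO10 correlated with the controls at r = 0.9960 to 0.9963 across all probe sets, close to the 0.9969 to 0.9975 among controls, and KO11 and KO12 at 0.9909 to 0.9937. Of the 22968 probe sets kept after a filter on low values, KO10 had 0.57%, KO11 2.83% and KO12 4.88% at 1.5-fold or more from the control mean, and 0.213% to 0.361% did so in a control array set against the other 2. Transcripts of the X and Y chromosomes placed males and females in both groups (C7, C8 and KO12 were male, and the other 3 female). The shift in KO11 and KO12 followed gene length and that in KO10 ran the other way. Among protein-coding probe sets, taken in 5 groups of 3185 by gene length, the group of the longest genes had a median deviation from the control mean of 0.05, -0.11 and -0.16 in KO10, KO11 and KO12, and the group of the shortest genes had -0.05, 0.00 and 0.03. The control arrays lay between -0.01 and 0.01 in both groups. The part of gene length in the results below was not tested.

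**Figure D1:**
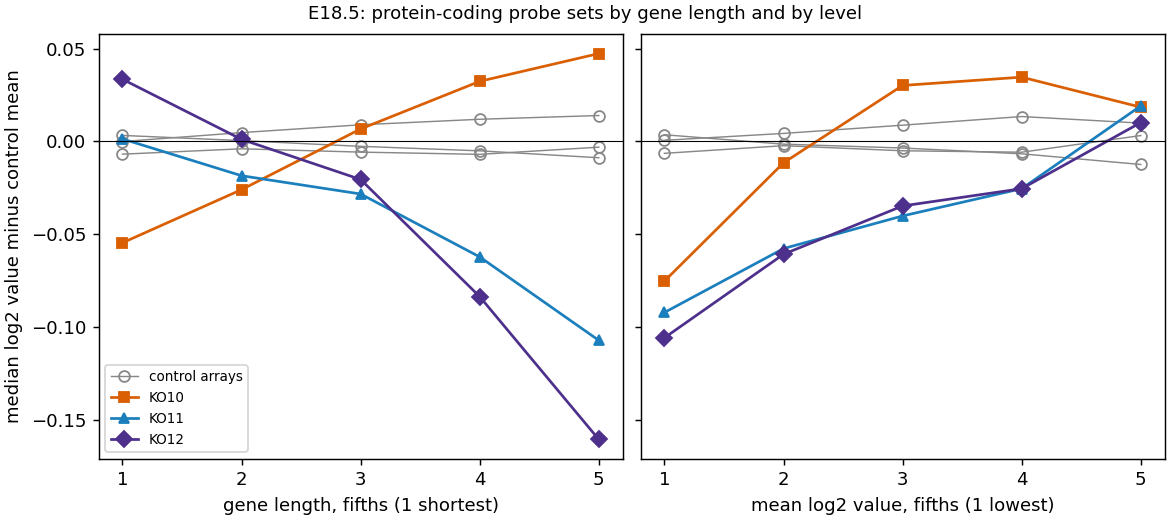
Median log2 value minus the mean of the 3 control arrays (y axis) in 5 groups of 3185 protein-coding probe sets each, ordered by gene length (left) and by mean log2 value (right). Each line is 1 array. In KO11 and KO12 the median falls with gene length to -0.11 and -0.16, in KO10 it goes up to 0.05, and all 3 lie between -0.08 and -0.11 in the group with the lowest values.

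*Scap* itself (probe set 10589511, chromosome 9 of GRCm38.p6, 110333288 to 110384949) was lower in every deleted lung. Its log2 value was 9.75, 9.71 and 9.71 in the control arrays and 9.47, 9.25 and 9.22 in KO10, KO11 and KO12. The groups did not overlap, and KO10 kept the highest level of the deleted lungs. The difference was -0.41 (SE 0.08, limma adjusted p = 0.096), which left 0.752 of the level in controls. The loxP sites lie upstream of exon 1 and in intron 1, so that Cre removes exon 1. Cells of the lung that are not epithelial also add to the signal of *Scap*. Where the remaining signal comes from was not tested.

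Across the genome, 1 probe set of 22968 passed an adjusted p of 0.05 in the limma fit of these 6 arrays, which is 0.00435% of those tested; 0 passed in the lower direction (0%). None met a stricter rule, which the study's methods give for the *Insig* line (adjusted p up to 0.01 and at least a 1.5-fold change). At an unadjusted p under 0.05 there were 6718 probe sets, 29.2% of all, with 3224 higher and 3494 lower, and after centring each array on its median 71% of such probe sets were higher in place of 48%. At an adjusted p of 0.1, a threshold chosen after the data were seen, 534 probe sets were higher (2.32%) and 326 lower (1.42%). Every difference below other than that of *Slc22a19* missed an adjusted p of 0.05 and is given as a value; an exact permutation test of 3 arrays against 3 cannot go below p = 0.1. Without KO10 the same test called 8630 probe sets, 4152 higher (18.3%) and 4478 lower (19.7%). Of them 8629 had the same sign with KO10 in the fit, but the fits share all other arrays, so this is no separate check.

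The probe set that passed belongs to *Slc22a19*, an organic anion transporter of the *Slc22* family (chromosome 19, 7673075 to 7711310). Its log2 values were 9.16, 8.94 and 9.06 in the controls and 10.01, 10.10 and 10.06 in KO10, KO11 and KO12, so the deleted lungs lay close together and well above the controls. *Slc22a19* rose 2.01-fold, a log2 difference of 1.004 with an SE of 0.07 (limma adjusted p = 0.0389). Related genes of this family lie near it, and probes shared with them were not looked for. It did not pass without C7, C8, C9 or KO11 (adjusted p of 0.122 to 0.294 from limma), nor without the filter on low values (0.101), in an unmoderated test (0.0912) or with the PN1 arrays in the fit (0.407), and it did without KO10 (0.00238) or KO12 (0.034).

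A difference of 1.5-fold or more with groups that did not overlap was met by 128 probe sets higher in *Scap*Δ/Δ lungs (0.769% of the 16637 with 1 gene symbol) and by 9 lower (0.0541%), and without KO10 by 446 and 21. Differences of this size were thus mostly on the higher side, in 126 genes against 9. Nearest to this limit, *Sdhaf4* (0.59), *Psmb8* (0.59) and *Tmem62* (0.59) lay just inside, and *Csf2* (0.58), *Ndufa1* (0.58) and *Prorsd1* (0.58) just outside. In KO10 the deviation was the smallest of the 3 deleted arrays for 113 of the 128 higher probe sets but for only 3 of the 9 lower. Of the 126 higher genes 21 belong to any of the 62 gene lists used here, and of the 9 lower genes 5. The share of all genes tested that belong to a list was not counted, so neither count is a result about the sets.

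**Figure D2:**
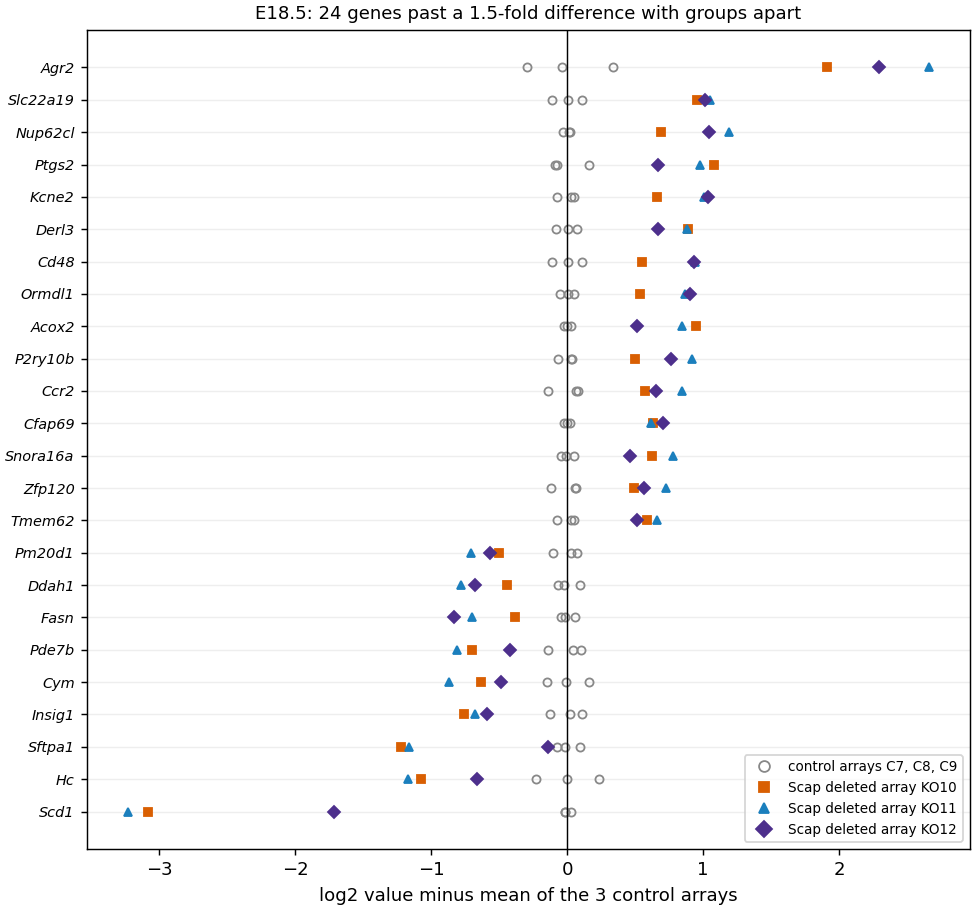
Log2 value minus the mean of the 3 control arrays (x axis) for the 15 higher genes with the smallest p and all 9 lower genes that differed by 1.5-fold or more without overlap. Open circles are the control arrays and filled symbols the *Scap*Δ/Δ arrays. *Agr2* at 1.91 to 2.66 and *Scd1* at -1.72 to -3.23 stand farthest from 0, and in *Sftpa1* KO12 lies at -0.14 beside the controls.

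*Agr2*, an ER-resident protein disulfide isomerase of mucus-secreting cells, had the largest higher difference of any gene. Its log2 values were 8.42, 8.80 and 8.17 in the controls and 10.37, 11.13 and 10.76 in KO10, KO11 and KO12. All 3 deleted lungs stood far above the controls, with a difference of 2.29 (SE 0.22, limma adjusted p = 0.0692), or 4.89-fold. At PN1, in other lungs, the 3 deleted arrays again lay above their control mean, by 2.36, 1.66 and 1.64. In the *Insig* line the mean difference of *Agr2* was 0.20, with single arrays from -0.69 to 1.85.

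Of the other 13 genes with the smallest p in this direction, *Cfap69*, a protein of motile cilia and sperm flagella, stood at 7.70, 7.72 and 7.68 in the controls and 8.33, 8.32 and 8.40 in KO10, KO11 and KO12. The spread within either group was small, and the difference was 0.65 (limma adjusted p = 0.0573). *Kcne2*, a beta subunit of potassium channels, stood at 8.75, 8.63 and 8.73 against 9.36, 9.71 and 9.74, a difference of 0.90 (limma adjusted p = 0.094). *Ptgs2*, the inducible cyclooxygenase of prostaglandin synthesis, stood at 7.79, 7.80 and 8.04 against 8.96, 8.86 and 8.55, a difference of 0.91 (limma adjusted p = 0.094), and was highest in KO10. *Ormdl1*, which restrains sphingolipid synthesis in the ER, differed by 0.77, and *Acox2*, a peroxisomal oxidase of bile acid intermediates and branched fatty acids, by 0.77. *Nup62cl*, *Tmem62* and *Zfp120* differed by 0.97, 0.59 and 0.60. *Derl3*, *Ccr2*, *Cd48*, *P2ry10b* and *Snora16a* are taken up with their groups.

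The 9 lower genes were *Scd1*, *Hc*, *Sftpa1*, *Insig1*, *Cym*, *Pde7b*, *Fasn*, *Ddah1* and *Pm20d1*, with log2 differences from -2.68 to -0.59. *Scd1*, the stearoyl-CoA desaturase that makes monounsaturated fatty acids, read 12.52, 12.51 and 12.56 in the controls and 9.45, 9.30 and 10.81 in KO10, KO11 and KO12. The controls were nearly equal while the deleted lungs spread widely, with KO12 least affected, and the difference was -2.68 (SE 0.36, limma adjusted p = 0.094), which is 0.156 of the level in controls. *Hc*, complement component C5, read 10.51, 10.29 and 10.75 in the controls and 9.44, 9.34 and 9.85 in the deleted lungs, a difference of -0.97 (limma adjusted p = 0.094). *Sftpa1*, surfactant protein A, read 12.88, 12.83 and 12.99 in the controls and 11.68, 11.74 and 12.76 in the deleted lungs. KO12 thus lay just under the lowest control, and the *Sftpa1* difference of -0.84 had an adjusted p of 0.119 from limma.

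Outside the lipid and surfactant genes, *Ddah1*, which breaks down methylarginine inhibitors of nitric oxide synthase, differed by -0.63, and *Pm20d1*, which makes N-acyl amino acids, by -0.59. *Pde7b*, a cAMP phosphodiesterase, differed by -0.64 and *Cym*, the gene of the aspartic protease chymosin, by -0.66. All 9 genes were also below 0 in each of the 3 deleted lungs at PN1, where 64.3% of all probe sets with 1 symbol had a mean difference below 0 and 4440 of 16637 were below 0 in all 3 arrays.

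Promoters of genes of the SREBP pathway and of the stress responses were searched for elements that these pathways act through. Each element was found in a minority of its list. The 6 promoters printed from RefSeq (GRCm38.p6), as windows of 300 bases around the start site, are among those that hold one. For the SREBP genes these are *Hmgcs1*, at chr13:119690101-119690400 on the plus strand, with the sterol regulatory element TCACNCCAC in capitals, and *Insig1*, at chr5:28071162-28071461 on the plus strand, with the E-box CACGTG in capitals, which SREBPs can bind as well.
Hmgcs1: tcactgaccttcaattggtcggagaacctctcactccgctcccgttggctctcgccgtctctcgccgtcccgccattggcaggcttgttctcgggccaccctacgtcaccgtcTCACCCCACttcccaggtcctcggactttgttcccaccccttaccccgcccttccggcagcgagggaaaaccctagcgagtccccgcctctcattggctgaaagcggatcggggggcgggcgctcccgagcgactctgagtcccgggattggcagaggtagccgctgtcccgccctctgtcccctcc
Insig1: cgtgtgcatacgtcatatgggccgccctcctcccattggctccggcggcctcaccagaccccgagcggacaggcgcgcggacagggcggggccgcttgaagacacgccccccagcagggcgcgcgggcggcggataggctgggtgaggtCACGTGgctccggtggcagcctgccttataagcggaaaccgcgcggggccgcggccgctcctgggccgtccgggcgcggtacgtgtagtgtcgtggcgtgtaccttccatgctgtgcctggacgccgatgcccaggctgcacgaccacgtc

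On either strand, TCACNCCAC occurs in the promoters of 1.44% of 27025 symbols and CACGTG in 8.09%. In the cholesterol synthesis list 1 of the 14 genes with a promoter entry held the sterol element and 3 held the E-box. In the fatty acid synthesis list 0 and 2 of 15 did, and in the sterol uptake and feedback list 0 and 1 of 3. No match says only that these letters are not in this window.

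SREBP genes were lower in all 3 *Scap*Δ/Δ lungs, KO10 included. Of all 15186 genes tested, 15.9% were higher and 22% lower with groups that did not overlap, and 14.6% were higher and 15.9% lower at an unadjusted p under 0.05. All list counts given below are to be read beside these shares. In the cholesterol synthesis list 12 of 17 genes were lower without overlap and 0 higher, 12 also had an unadjusted p under 0.05 in limma, and the median difference was -0.26 (-0.04 over all genes tested). By array the medians were -0.32, -0.28 and -0.33 (KO10, KO11 and KO12). *Fdps* (-0.51), *Dhcr7* (-0.43) and *Cyp51* (-0.47), enzymes of the middle and end of the sterol pathway, had the smallest p, and *Hmgcs1*, which makes the precursor HMG-CoA and was chosen after its values were seen, differed by -0.38 (-0.33, -0.48 and -0.33 in KO10, KO11 and KO12).

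All 4 genes of sterol uptake and feedback with a probe set kept were lower without overlap, by a median of -0.58. *Insig2*, which is not in this list, was higher without overlap and is given at the end. *Insig1*, which holds SCAP in the ER, read 10.73, 10.88 and 10.97 in the controls and 10.10, 10.18 and 10.27 in KO10, KO11 and KO12, with KO10 the lowest. *Srebf1* and *Srebf2*, the genes of the SREBPs themselves, both differed by -0.58. In the fatty acid synthesis list 13 of 18 were lower without overlap and 0 higher, with a median of -0.25 (-0.21, -0.29 and -0.30 by array). Besides *Scd1*, *Scd2* (-0.54) and *Fads1* (-0.50), a front-end desaturase, had the smallest p, and *Fasn*, the fatty acid synthase, differed by -0.64 (-0.39, -0.70 and -0.84). None of these genes passed an adjusted p of 0.05 in limma.

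Lists next to these lipid pathways were mixed. Of 18 genes of phosphatidylcholine synthesis and remodeling, 4 were lower and 3 higher without overlap, with a median of -0.04. *Lpcat1*, the lysophosphatidylcholine acyltransferase of surfactant phosphatidylcholine in type II cells, read 12.55, 12.55 and 12.53 against 12.12, 12.19 and 12.18, which is -0.38 in lungs that differed little within either group (limma adjusted p = 0.094). *Pla2g4a*, the cytosolic phospholipase A2 that frees arachidonic acid, differed by 0.47 and *Lpcat3* by -0.29. Of 16 genes of phosphatidate and triglyceride synthesis 7 were lower and 2 higher without overlap, among them *Gpam* at -0.35. Sterol export and LXR targets (11 genes, 2 lower and 2 higher) and lipid storage and PPAR targets (20 genes, 2 lower and 4 higher) had medians of -0.00 and -0.01, which became 0.04 and 0.03 after median centring, and *Fabp4*, a fatty acid carrier of macrophages and fat cells, differed by 0.82.

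Several genes of the ER and integrated stress responses were higher in the deleted lungs, while the main ER chaperones overlapped with the controls. The ER responds to misfolded protein through ATF6 and XBP1, which act at ER stress elements (CCAAT, 9 bases, then CCACG), and through PERK, which with other kinases raises ATF4 and its targets. *Derl3*, at chr10:75893148-75893447 on the plus strand, and *Hspa5*, at chr2:34771840-34772139 on the plus strand, are shown with both ends of the ER stress element in capitals (on the other strand in *Derl3*); *Atf3*, at chr1:191183284-191183583 on the minus strand, and *Chac1*, at chr2:119350992-119351291 on the plus strand, are shown with the ATF4-type site TGATGNAA in capitals, read on the other strand.
Derl3: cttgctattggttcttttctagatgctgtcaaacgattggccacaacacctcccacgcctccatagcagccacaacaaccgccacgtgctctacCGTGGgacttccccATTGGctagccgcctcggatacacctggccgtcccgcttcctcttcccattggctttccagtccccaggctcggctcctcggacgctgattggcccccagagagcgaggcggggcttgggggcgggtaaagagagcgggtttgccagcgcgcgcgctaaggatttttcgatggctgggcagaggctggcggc
Hspa5: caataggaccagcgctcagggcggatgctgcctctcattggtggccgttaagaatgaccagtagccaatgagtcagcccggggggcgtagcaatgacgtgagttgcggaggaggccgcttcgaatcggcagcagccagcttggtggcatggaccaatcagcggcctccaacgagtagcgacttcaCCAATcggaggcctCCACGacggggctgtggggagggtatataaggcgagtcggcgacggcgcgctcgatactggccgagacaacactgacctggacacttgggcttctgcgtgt
Atf3: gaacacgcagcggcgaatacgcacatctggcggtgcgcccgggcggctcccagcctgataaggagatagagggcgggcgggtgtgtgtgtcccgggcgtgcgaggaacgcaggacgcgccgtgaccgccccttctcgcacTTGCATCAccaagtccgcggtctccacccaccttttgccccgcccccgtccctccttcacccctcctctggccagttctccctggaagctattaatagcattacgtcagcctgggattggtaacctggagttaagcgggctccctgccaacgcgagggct
Chac1: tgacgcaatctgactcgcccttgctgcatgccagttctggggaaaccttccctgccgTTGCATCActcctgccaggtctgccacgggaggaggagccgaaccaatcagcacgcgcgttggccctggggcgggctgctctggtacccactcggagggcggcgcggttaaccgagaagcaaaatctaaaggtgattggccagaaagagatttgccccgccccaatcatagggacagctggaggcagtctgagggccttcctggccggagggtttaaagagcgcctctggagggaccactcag

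The ER stress element occurs in the promoters of 0.137% of symbols and TGATGNAA in 4.51%, on either strand. Of the 30 genes of the list with a promoter entry, 9 held the ER stress element and 5 held TGATGNAA.

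In the list of 34 stress genes, 14 were higher without overlap and 1 lower, beside 15.9% and 22% of all genes. *Derl3*, which helps export misfolded protein from the ER of secretory cells, read 7.63, 7.70 and 7.54 in the controls and 8.51, 8.50 and 8.29 in KO10, KO11 and KO12. The deleted lungs stood together above the controls, and the difference was 0.81 (SE 0.08, limma adjusted p = 0.0779). *Atf3*, a stress-induced transcription factor, read 8.69, 8.68 and 8.53 against 9.15, 9.43 and 9.16 (0.62, limma adjusted p = 0.094). *Chac1*, which degrades glutathione and is a target of ATF4, read 8.21, 8.20 and 8.30 against 8.82, 8.78 and 8.58 (0.49, limma adjusted p = 0.094). KO10 was the highest of the deleted lungs in *Derl3* and *Chac1* and level with KO12 in *Atf3*.

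The further members named here were chosen after their values were seen. *Sdf2l1*, a cofactor of ER chaperones, differed by 0.59, *Ddit3*, the gene of CHOP, by 0.50 and *Asns*, asparagine synthetase, by 0.48, all without overlap. *Hspa5*, the chaperone BiP, read 12.13, 12.12 and 12.09 against 12.28, 12.24 and 11.93, so that KO10 and KO11 lay above and KO12 below the controls, with a difference of 0.04. Of the 9 genes with an ER stress element, *Derl3*, *Creld2* (0.18) and *Dnajc3* (0.14) were higher without overlap, *Syvn1* (-0.23) was lower without overlap, and *Hspa5*, *Calr* (-0.01), *Canx* (-0.10), *Hsp90b1* (-0.01) and *Pdia6* (0.07) overlapped. The list median was 0.07, and 0.11, 0.12 and 0.02 by array.

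**Figure D3:**
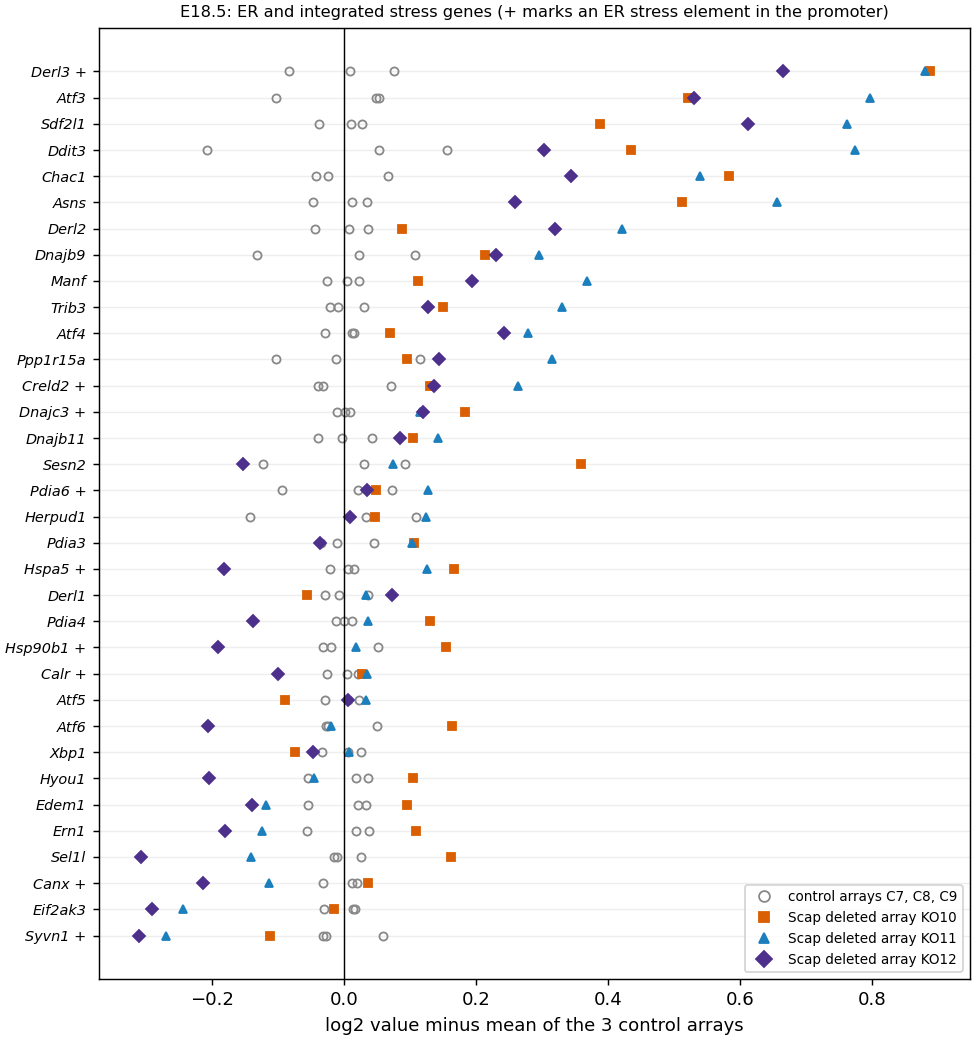
Log2 value minus the mean of the 3 control arrays (x axis) for the 34 genes of the ER and integrated stress list, ordered by difference. Open circles are control arrays, filled symbols *Scap*Δ/Δ arrays, and a plus sign marks the 9 genes with an ER stress element. *Derl3* to *Asns* at the top lie at 0.26 to 0.89 in all 3 deleted arrays, and for *Hspa5* KO12 lies at -0.18 against 0.17 in KO10.

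Several markers of myeloid cells were higher in the deleted lungs. Of 20 macrophage and monocyte genes 8 were higher without overlap and 0 lower, with a median of 0.22 (0.12, 0.27 and 0.15 in KO10, KO11 and KO12, and -0.11 to 0.09 in the controls). *Ccr2*, the chemokine receptor that brings monocytes out of the blood, read 9.52, 9.30 and 9.50 in the controls and 10.01, 10.29 and 10.09 in KO10, KO11 and KO12, a difference of 0.69 (limma adjusted p = 0.094). *Ctss*, the lysosomal protease cathepsin S of antigen-presenting cells, read 9.92, 9.73 and 9.94 against 10.36, 10.37 and 10.33, so that the deleted lungs lay nearly on top of each other (0.49). *Fcgr3*, an Fc receptor, differed by 0.58 (0.26, 0.68 and 0.81). Other markers of the list lay below 0, since *Marco* (-0.16), *C1qc* (-0.09), *Cx3cr1* (-0.02) and *Itgam* (-0.21), named after their values were seen, overlapped with the controls.

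Among the 15 genes named above, *Cd48*, a surface protein of leukocytes, differed by 0.81 and *P2ry10b*, a lysophospholipid receptor gene of blood cells, by 0.73. In the neutrophil list *S100a8*, a calcium-binding alarmin, read 8.27, 8.09 and 8.22 against 8.67, 9.63 and 9.74 (1.15) and *S100a9*, its partner, differed by 0.68 (0.15, 0.78 and 1.11), while *Mmp9* differed by -0.22 and 3 of 13 members were higher and 3 lower without overlap. *Saa3*, an acute phase protein of the secreted defence list, differed by 1.13 (0.58, 1.31 and 1.49). It was the only one of 11 genes in that list to be higher without overlap, and 1 was lower. Of 5 lymphocyte markers kept, 0 were apart in either direction. Of 6 mast cell markers 0 were higher and 1, *Kit* (-0.33), lower without overlap, but 4 lay above 0 and the median was 0.36. By array it was 0.34, 0.60 and 0.08 in KO10, KO11 and KO12, and -0.14 to 0.23 in the controls. *Cma1* (0.38) and *Tpsb2* (0.34) overlapped with the controls.

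In the interferon list 6 of 22 genes were higher without overlap and 0 lower, beside 15.9% and 22% of all genes. The median was 0.11, with 0.08, 0.03 and 0.21 in KO10, KO11 and KO12. The control arrays spread from -0.11 to 0.15, so KO10 and KO11 lay within their range. *Ifit3*, an interferon-induced antiviral protein, read 6.77, 6.56 and 7.04 against 7.69, 7.55 and 8.002, a difference of 0.96 (limma adjusted p = 0.094). *Psmb8*, a subunit of the immunoproteasome, differed by 0.59 (0.53, 0.43 and 0.80), and *Irf1* by 0.23, with another *Irf1* probe set at -0.02. Of members named after their values were seen, *Ifit1* differed by 0.86 (0.69, 0.42 and 1.45), while *Oas2* (-0.14), *Oasl2* (-0.07) and *Stat2* (-0.06) overlapped. Of the prostaglandin list 2 of 16 were higher and 1 lower, *Ptgs2* and *Hpgd* (0.37), the prostaglandin-degrading dehydrogenase, among the higher.

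Genes of the ribosome, the proteasome and the respiratory chain were higher by median in KO11 and KO12 and near the controls in KO10. Of 77 mitochondrial ribosome genes 27 were higher without overlap and 0 lower, and the median deviations of KO10, KO11 and KO12 were 0.01, 0.33 and 0.45. Of 79 oxidative phosphorylation genes 20 were higher and 1 lower, with medians of 0.01, 0.28 and 0.35. Of 37 proteasome genes 19 were higher and 1 lower (0.05, 0.22 and 0.33), and of 59 cytosolic ribosome genes 22 were higher and 2 lower (0.01, 0.15 and 0.15). For the latter, processed pseudogenes can share probes. The members with the smallest p, besides *Psmb8*, were *Mrpl47* (0.37), *Mrpl50* (0.47) and *Mrpl32* (0.58) of the mitochondrial ribosome, *Uqcr11* (0.55), *Uqcrh* (0.50) and *Ndufc2* (0.23) of the respiratory chain, and *Psma3* (0.34) and *Psmc6* (0.39) of the proteasome. *Mrpl50* read 9.62, 9.67 and 9.67 in the controls and 9.87, 10.25 and 10.26 in KO10, KO11 and KO12. Another probe set of *Mrpl47* differed by -0.01. The deviations of KO11 and KO12 also moved with gene length, as described above, and its part was not tested.

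Small nucleolar RNAs, which guide modification of ribosomal RNA and lie in introns of host genes, showed the highest list median, in a class formed after the values were seen. Of 39 kept, 37 were above 0, 19 were higher without overlap and 0 lower, with a median of 0.40 (0.08, 0.50 and 0.61 by array). *Snora16a*, one of the 15 named genes, read 9.27, 9.17 and 9.21 in the controls and 9.85, 9.998 and 9.68 in KO10, KO11 and KO12, a difference of 0.62 (limma adjusted p = 0.094). *Snora31* read 7.98, 7.99 and 7.75 against 8.54, 9.09 and 9.0004 (0.97), and *Snora73a* 9.84, 9.87 and 9.79 against 10.34, 10.81 and 10.85 (0.84). The last 2 were chosen after their values were seen. In these 3 RNAs KO10 was above every control as well. The naming rule requires this for *Snora16a*, and the last 2 were picked with their values known, so it is no separate support. At PN1 the median of the same 39 was 0.83, and each deleted array lay above 0 (0.39, 1.15 and 1.05). Medians of microRNA genes, long noncoding RNAs and olfactory receptors, below 0 at E18.5, also lay above 0 at PN1 (0.38, 0.09 and 0.18). In the PN1 array KO16 those 3 medians were below 0 (-0.08, -0.06 and -0.11). In the *Insig* line the median of the small nucleolar RNAs was -0.13.

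Other noncoding or weakly expressed transcripts mostly lay below the controls. Of 105 microRNA genes, whose probe sets read the hairpin or its precursor, 47 were lower and 3 higher without overlap (median -0.14), and of 363 long noncoding RNAs 125 were lower and 16 higher (median -0.10). Of 72 olfactory receptors, which the lung hardly uses, 29 were lower and 0 higher, with medians of -0.09, -0.14 and -0.11 in KO10, KO11 and KO12. The group of protein-coding probe sets with the lowest values had medians of -0.08, -0.09 and -0.11, so that these values lie near those of dim probe sets as a whole. Of 283 zinc finger protein genes 97 were higher and 49 lower without overlap, among them *Zfp626* (0.48), *Zfp120* (0.60) and *Zfp974* (0.46). Many share near-identical repeats, so that their probes may not be specific.

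**Figure D4:**
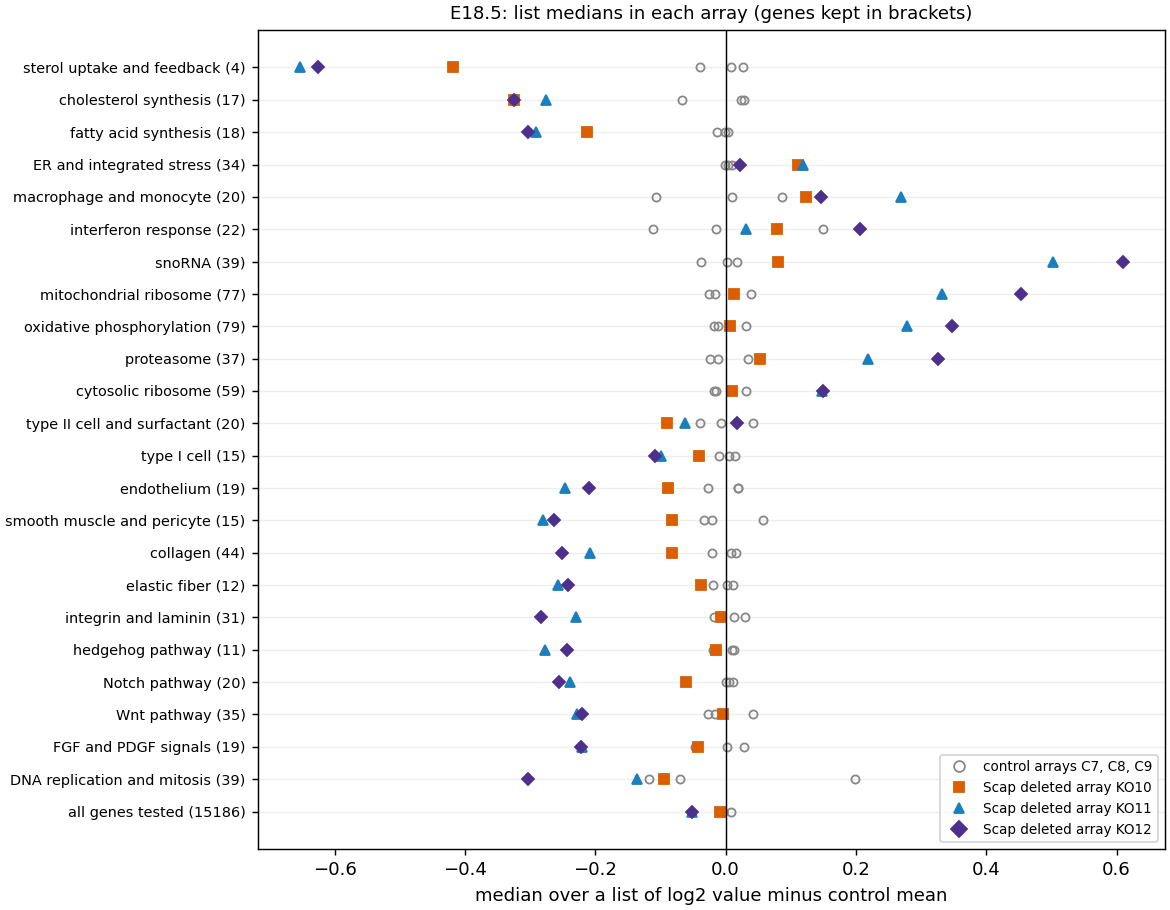
Median over each gene list of the log2 value minus the control mean (x axis), with the number of genes kept in brackets. Open circles are control arrays and filled symbols *Scap*Δ/Δ arrays. The 3 SREBP lists lie between -0.21 and -0.65 in every deleted array, whereas from snoRNA to FGF and PDGF signals KO10 lies between -0.09 and 0.08 and KO11 and KO12 reach 0.61 and -0.28.

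Genes of the extracellular matrix lay mostly below 0, further so in KO11 and KO12 than in KO10. All 44 collagen genes lay below 0, 25 of them without overlap, and the median was -0.17 (-0.08, -0.21 and -0.25 in KO10, KO11 and KO12). *Col15a1*, a collagen of basement membranes of vessels and muscle, read 8.72, 8.88 and 8.81 against 8.55, 8.37 and 8.26, a difference of -0.41 (limma adjusted p = 0.0971). *Col27a1* and *Col6a6* differed by -0.23 and -0.29, with another *Col6a6* probe set at -0.00. Of 31 integrin and laminin genes, 10 were lower and 1 higher without overlap, led by *Itgb6* (-0.41), the epithelial integrin subunit that activates TGF-beta, *Itgb3* (-0.37) and *Itga3* (-0.39). Of 12 elastic fiber genes 6 were lower and 1 higher, among them *Ltbp4* (-0.37) and *Mfap2* (-0.23). The medians of these lists in KO10 were -0.01 for integrins and laminins and -0.04 for elastic fibers.

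In the smooth muscle and pericyte list 3 of 15 were lower and 1 higher without overlap, with a median of -0.22, and *Myocd*, the master coactivator of smooth muscle genes, read 8.52, 8.60 and 8.45 against 8.11, 8.10 and 8.20 (-0.39, limma adjusted p = 0.094). In contrast to the list as a whole (-0.08 in KO10), *Myocd* was as low in KO10 as in the others. Next by p were *Smtn* (-0.36), lower without overlap, and *Rgs5* (0.27), higher without overlap. Of 19 endothelial genes 7 were lower and 0 higher (median -0.16), with *Robo4* (-0.32), *Aplnr* (-0.30) and *Sox18* (-0.32) first by p. Of 17 fibroblast genes 3 were lower and 0 higher (median -0.12), with *Fbln1* at -0.24 and *Tbx4* at -0.29 first by p. *Lum*, next by p, went the other way at 0.48 (0.26, 0.96 and 0.21 by array) and overlapped with the controls. In the fibroblast and the smooth muscle and pericyte lists the share lower without overlap was under the 22% of all genes.

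Lists of developmental signals had medians below 0, and their counts are to be read beside the 22% of all genes that were lower without overlap. Of 35 Wnt pathway genes 12 were lower and 1 higher without overlap (median -0.16, with -0.00, -0.23 and -0.22 by array), with *Sfrp2*, a secreted Wnt modulator, at -0.39, the receptor *Fzd10* at -0.25 and the transducer *Dvl2* at -0.22. Of 19 FGF and PDGF genes 9 were lower and 0 higher (median -0.16), with the receptor *Fgfr2* at -0.37 (11.45, 11.40 and 11.43 against 11.18, 11.005 and 11.002), and the ligands *Pdgfb* at -0.31 and *Fgf18* at -0.32. All 20 Notch genes and all 11 hedgehog genes lay below 0, 6 and 3 of them without overlap, with medians of -0.18 and -0.20. *Jag2*, a Notch ligand, differed by -0.35 and *Gli2*, the hedgehog transcription factor, by -0.37. Ephrins and semaphorins (12 of 50 lower and 2 higher, median -0.13) and TGF-beta signals (4 of 20 lower and 1 higher, median -0.06) had smaller medians. The shares lower in the Notch, hedgehog, ephrin and semaphorin, and TGF-beta lists lay near that of all genes. Of 39 genes of DNA replication and mitosis 10 were lower and 0 higher, with *Mcm3* at -0.38, but the control arrays themselves spread from -0.12 to 0.20 in the list median.

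The epithelial lists had medians near 0. Of 20 type II cell and surfactant genes 6 were lower and 0 higher without overlap, with a median of -0.04 (-0.09, -0.06 and 0.02). Besides *Hc* and *Sftpa1*, *Etv5* (-0.31) and *Sftpb* (-0.20) were lower without overlap. *Sftpc*, the gene whose promoter drives rtTA here, read 13.37 to 13.42 in all 6 lungs, differing by 0.00. These values lie near the highest mean of any protein-coding probe set (13.69), and whether a difference can show at that level was not tested. *Lamp3* differed by 0.06. Both *Sftpc* and *Lamp3* overlapped and were chosen after their values were seen. Of 15 type I cell genes 5 were lower and 2 higher (median -0.08), with *Spock2* at -0.38 and *Cav2* at 0.33. General epithelial genes (20, of which 5 higher and 1 lower) and epithelial transcription factors (20, of which 1 higher and 2 lower) had medians of -0.00 (0.04 after median centring) and -0.09. The epithelial, endothelial and muscle markers of whole lung were thus read in all 6 lungs.

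Airway genes differed in both directions. The counts in the ciliated and club cell lists lay near the 15.9% higher and 22% lower without overlap among all genes. Of 17 ciliated cell genes 4 were higher, among them *Tekt1*, a tektin of the axoneme (0.37), and *Mlf1* (0.43), and 2 lower, among them *Cdhr3* (-0.29), with a median of 0.09. The 9 club cell genes had a median of 0.10, with *Gsto1* (0.39) higher and *Cyp2f2* (-0.09) lower without overlap and *Scgb3a1*, a secretoglobin, at 10.09, 11.47 and 9.66 in the controls and 10.54, 12.33 and 11.12 in the deleted lungs, which overlapped. Among 13 fluid and ion transport genes, 4 were lower and 2 higher, with the potassium channel subunit *Kcne3* at 0.69 and the sodium channel subunits *Scnn1g* and *Scnn1b* at -0.27 and -0.26. *Rab17*, a small GTPase of polarized epithelial cells, differed by 0.71 (0.50, 0.91 and 0.71).

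Markers of tissue that can be taken along with the lung differed between arrays. Heart muscle genes had list medians of -0.09, 0.30 and -0.10 in KO10, KO11 and KO12, and *Myl7*, an atrial myosin light chain, read 10.59, 10.70 and 10.58 in the controls and 10.60, 11.51 and 11.35 in the deleted lungs. Of 13 heart genes, 1 was higher without overlap, *Pln*, which belongs to the 126 higher genes (0.66). Of 11 erythroid genes 1 was lower and 0 higher (median -0.09), and of 9 cartilage genes 5 were lower and 2 higher (median -0.13). The part of such tissue in the other results was not tested.

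The same deletion was measured at birth in other lungs, and no array is shared between the ages. At PN1, KO16 stood apart from KO17 and KO18, so single arrays are given. The 128 probe sets higher at E18.5 had a median difference of -0.18 at PN1, with 0.46 in KO16 and -0.51 and -0.48 in KO17 and KO18. Of the 128, 90 had a mean below 0 at PN1, beside 64.3% of all probe sets with 1 symbol, 24 were above 0 in all 3 deleted arrays and 5 below 0 in all 3. Of all 16637 such probe sets, 1373 were above 0 in all 3 and 4440 below 0 in all 3. The 9 lower probe sets had a median of -0.76 at PN1 and were below 0 in all 3. Across the 22968 probe sets, E18.5 and PN1 differences correlated at r = -0.105, given as a description across genes that are not independent. On the same terms, the E18.5 differences and those of the *Insig* line at E17.5 correlated at r = 0.262. In the *Insig* line, which raises SREBP activity, the 128 had a median of 0.20, with 110 above 0 beside 9180 of all 16637, and the 9 had a median of 0.00, and *Scd1* was 0.99.

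The difference between the effects at the ages was tested in a limma fit of 12 arrays. None of 22800 probe sets passed an adjusted p of 0.05 (smallest adjusted p 0.265), and 4181, or 18.3%, had an unadjusted p under 0.05. *Agr2* (-0.40 from E18.5 to PN1), *Scd1* (-0.86) and *Insig1* (-0.08) lay on the same side of 0 at both ages, and *Snora16a* differed by 0.05. *Derl3* was 0.81 at E18.5 and 0.17 at PN1, and *Ptgs2* 0.91 and -0.83. Of the lists above, collagen stood at -0.17 and 0.13, mitochondrial ribosome at 0.24 and -0.31, macrophage and monocyte at 0.22 and -0.36, and cholesterol synthesis at -0.26 and -0.84 (medians at E18.5 and PN1, where all genes had -0.04 and -0.11). By array at PN1 (KO16, KO17 and KO18), the medians were -0.10, 0.23 and 0.26 for collagen and 0.27, -0.61 and -0.56 for the mitochondrial ribosome, so that in KO16 both lists kept the sign of E18.5. They were -0.00, -0.68 and -0.60 for macrophages and monocytes and -0.30, -1.05 and -1.10 for cholesterol synthesis.

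**Figure D5:**
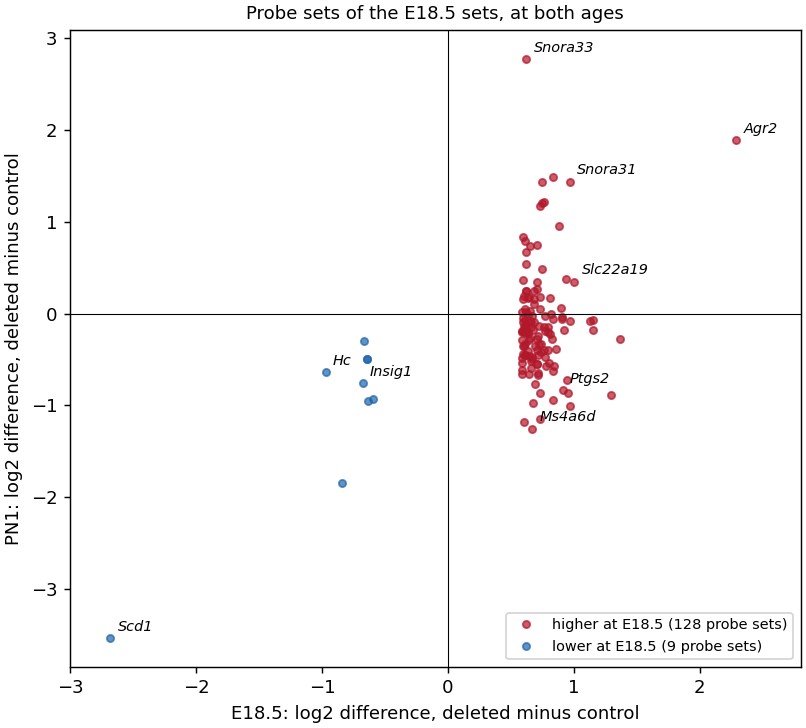
Log2 difference of deleted from control lungs at E18.5 (x axis) and PN1 (y axis) for the 128 higher and 9 lower probe sets; each point is 1 probe set and a mean of 3 arrays against 3. All 9 lower probe sets lie below 0 at PN1, 90 of the 128 higher ones do, and *Agr2* and small nucleolar RNAs such as *Snora31* (1.44) and *Snora33* (2.77) lie above 0 at both ages.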

How the data were processed

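The authors hybridized RNA of whole lung to Affymetrix Mouse Gene 1.0 ST arrays. The deposited values are log2 expression per probe set; the authors analysed them in GeneSpring GX, and the summarization and normalization behind them are not given in the sources used here. Groups were taken from the sample labels, all value columns belonged to a sample of the series (0 did not), and other age groups of the *Scap* line and microRNA arrays were not analysed here.

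As in the study's methods, a probe set was kept if 66% or more of the 6 arrays read it no lower than the array's 35th percentile (22968 of 35556 were). A single gene symbol was given for 21789 of the 35556, several for 1621 and none for 12146; RefSeq (GRCm38.p6) held 21698 of the first. Where a gene had several probe sets, the brightest stood for it in a list. The 6 arrays alone were fitted in limma 3.58.1 (R 4.3.3) without a block, and p-values were corrected over all probe sets kept (Benjamini-Hochberg). The difference between ages was tested in a fit of the 12 *Scap* arrays. A group was said not to overlap where all 3 deleted arrays lay beyond all 3 control arrays. The fit was run on simulated data in which no probe set had more than the median spread and no array stood apart. That run does not show how the fit behaves on these arrays. Python 3.11.15 with matplotlib 3.10.9, numpy 2.4.6 and pandas 2.3.3 drew the plots.

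The text names *Scap*, every gene past an adjusted p of 0.05, the 15 genes per direction with the smallest p among those with a 1.5-fold difference and no overlap, and up to 3 genes per list with the smallest p; others were chosen after their values were seen, as were the RefSeq classes of noncoding RNA and the adjusted p of 0.1. The 62 gene lists and the comparison were chosen with earlier results of these data known. Genes on chromosome 18 and a few further genes are not reported here. Alternatives were other filters, normalizations, a variance trend, Student's test without moderation (which the study's methods give for the *Insig* line, while the *Scap* arrays were analysed there by ANOVA over genotype and time), array weights, other arrays in the fit, gene means and leaving out each array. Replicates are labelled as separate lungs by the study's methods, and 3 arrays per group limit the precision.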

Additional observations from a re-analysis of the deposited data

Results flagged for a closer look

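The effect of the deletion on *Ptgs2* lay on opposite sides of 0 in every deleted lung of the 2 ages. At E18.5 the deviations from the control mean were 1.08, 0.98 and 0.67, and at PN1 -0.34, -0.82 and -1.34. The PN1 effect minus the E18.5 effect was -1.75 (adjusted p = 0.265 from limma), so the difference did not pass the test across all probe sets.

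In 4 gene lists the median also lay above 0 in all 3 deleted arrays at E18.5 and below 0 in all 3 at PN1, and these differences were not tested. For macrophage and monocyte genes, PN1 minus E18.5 was -0.58, with KO16 at -0.00 at PN1. For interferon response genes it was -0.47, for lipid storage and PPAR targets -0.29 and for zinc finger proteins -0.18. The interferon medians of KO10 (0.08) and KO11 (0.03) at E18.5 lay within the spread of the control arrays, -0.11 to 0.15. At E18.5 the 3 deleted arrays had medians of 0.01 to 0.05 for lipid storage and 0.02 to 0.06 for zinc finger proteins. For lipid storage the control arrays spread from -0.05 to 0.03. The median of its gene differences at E18.5 was -0.01, below 0 as at PN1. Groups of 3 arrays are too small for a check of single outlying arrays.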

How the results depend on the processing

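The count at an adjusted p under 0.05 (1 probe set) was 0 without a filter, 4 with a filter at the 50th percentile, 2 after quantile normalization, 5 after median centring, 0 in Student's test without moderation, 2 with all 12 *Scap* arrays, 4 with gene means and 15929 with array weights, and 0 to 8630 when 1 array was left out; the highest was without KO10. Array weights did not converge and gave KO11 a weight of 48.6 against 0.108 for KO10, so that fit leans on 1 deleted lung. At an adjusted p up to 0.01 and a 1.5-fold change the count of 0 was 680 with array weights and 0 to 589 without 1 array (589 without KO10, 1 without C8 or KO12). The 6718 probe sets at an unadjusted p under 0.05 became 16586 with array weights, 2107 with 12 arrays and 4189 with gene means, and 3589 to 11477 without 1 array (3589 without C7, 4100 without C9, 3690 without KO11 and 11477 without KO10). The 128 higher and 9 lower probe sets became 287 and 16 with array weights, and ranged from 88 to 446 and from 6 to 21 without 1 array, both highest without KO10 (17 lower without KO12). The count of 0 for PN1 minus E18.5 became 14685 with array weights and 0 to 13219 without 1 array, the highest without KO16. The cause of these changes was not tested.

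Median centring moved the median of all probe sets from -0.04 to -0.00. Of 928 list medians under alternatives, 86 moved by more than the spread of the arrays and 50, in 14 lists, had the other sign. Of 2881 values of 195 genes under alternatives, 0 had the other sign. Besides *Scap*, these genes were picked by p in the same arrays, so this count is no separate check. No paired analysis was possible because the groups share no replicate numbers.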

Other observations

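Of all genes tested, 15.9% were higher and 22% lower without overlap, and several counts in this paragraph lie near these shares. Of 21 immediate early genes 7 were lower and 0 higher without overlap (median -0.13), with *Jun* at -0.21 and *Klf4* at -0.19. Of 23 genes of hypoxia and glycolysis 5 were higher and 1 lower (median 0.02), with the mitophagy receptor *Bnip3* at 0.42. Of 14 p53 targets 5 were higher and 2 lower, with *Ccng1* at 0.24 and *Mdm2*, the p53 ubiquitin ligase, at 0.22. Of 20 antioxidant and NRF2 targets 5 were higher and 0 lower (median 0.08), with the ER peroxiredoxin *Prdx4* at 0.27. In the glucocorticoid list *Mt2*, a metallothionein, differed by -0.51, and 4 of 16 were lower and 1 higher. Of 8 skeletal muscle genes 4 were lower and 0 higher (median -0.15), of 6 mesothelial genes 1 was lower and 0 higher (-0.16), and of 2 brown fat genes 1 was higher and 1 lower (0.34).

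*Insig2*, which like *Insig1* holds SCAP in the ER, was higher without overlap at E18.5 by 0.30 (0.22, 0.33 and 0.33 by array) and differed by -0.41 at PN1. It was chosen after its values were seen. Other genes chosen in this way among the higher set were *Il18*, an inflammasome cytokine, at 0.97 and *Casp1*, which cleaves it, at 0.74. The lectin receptors *Clec4n* and *Clec7a* of myeloid cells differed by 1.15 and 0.94.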
